A study of Arabidopsis thaliana and Brassica rapa with 28 samples.

Results

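SMALL AUXIN UP RNA (SAUR) genes outside the SAUR19 subfamily were followed in Arabidopsis thaliana seedlings. The members were 43 loci taken from the family by name, leaving out SAUR19 to SAUR24, and 42 of them had a row among the 33543 rows of the Arabidopsis gene tables. SAUR30 had no row of its own: the span of its locus carried another gene's row, so no value is given for it. Of the 42, 40 were matched by gene identifier and SAUR7 and SAUR29 by the gene name column. By order of their AGI numbers, which count loci along a chromosome, 25 of the 43 loci stood in 6 genomic clusters and 18 stood alone.

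SAUR genes are short and mostly intronless, and many of them respond to auxin within minutes. Their proteins bind and inhibit D-clade type 2C protein phosphatases (PP2C.D), which otherwise remove an activating phosphate from the plasma membrane proton pumps (AHA). Active pumps acidify the cell wall, which lets it yield, so SAUR proteins are known as promoters of cell expansion in hypocotyls and other organs, including under shade. In the reference annotation (RefSeq, TAIR10.1), 40 of the 43 loci had 1 exon, and the coding length ran from 261 to 561 bases with a median of 333.

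Polyadenylated RNA of whole seedlings was sequenced in 16 libraries, 4 per group. Seedlings were 5 d old, had grown in continuous W light and then received 4 h of W light or of shade, which is light with a low red to far-red ratio. Control seedlings were hemizygous for UAS::axr3-1::mCit, the effector transgene without its driver. CER6pro>>axr3-1::mCit seedlings, called axr3-1 below, expressed it from the CER6 promoter, which is active in the epidermis, while all tissues were harvested together. AXR3 is an Aux/IAA repressor of auxin responses, and axr3-1 is its stabilised form. The 4 groups were thus control W, control shade, axr3-1 W and axr3-1 shade. The authors deposited 1 value per gene and group, in FPKM (mapped fragments scaled to transcript length and library size), so no value per library exists here and the depth is unknown.

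The labels were checked on 2 genes. The FPKM of AXR3 was 47.1 in control W, 37.1 in control shade, 113 in axr3-1 W and 112 in axr3-1 shade, a sum over the endogenous gene and any transgene reads assigned to it. PIL1, an early shade marker, stood at 0.894 in control W, 37.3 in control shade, 0.895 in axr3-1 W and 44.6 in axr3-1 shade. Both followed their labels. Markers of photosynthetic tissue, epidermis, root, endodermis, phloem and guard cells were all above 0 in every group.

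Most members were expressed at low to moderate levels. Of the 42, 35 had at least 1 FPKM in every group, SAUR3 had it in some groups, and 6 stayed under 1 FPKM throughout. Those 6 were SAUR2, listed at 0 in all groups, and SAUR11, SAUR13, SAUR17, SAUR25 and SAUR40. SAUR78 (AT1G72430), whose protein is known to interact with ethylene receptors, had the highest level of all members in each group, at 102 FPKM in control W, 66.4 in control shade, 133 in axr3-1 W and 83.6 in axr3-1 shade. In control W it was followed by SAUR16 at 44.3, SAUR14 at 42.0, SAUR6 at 41.1 and SAUR32 at 39.9 FPKM. SAUR32 is known for its part in the apical hook, and SAUR14, SAUR16 and SAUR50 for transcripts that respond to light in opposite ways in cotyledon and hypocotyl. The levels of these 4 followers lay close together, and their order could not be tested because the spread over libraries is not in the tables.

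The summed level of the 42 members was 477 FPKM in control W, 479 in control shade, 711 in axr3-1 W and 600 in axr3-1 shade. The median member stood at 4.35, 7.54, 8.45 and 8.65 FPKM in the same order. In control seedlings the sum was alike in both lights while the median was higher in shade, and the 5 highest members made up 56.3% of the sum in control W and 40.5% in control shade. Of the 36 members with at least 1 FPKM somewhere, 24 had their lowest level in control W, and 17 had their highest in axr3-1 W. Neither count was taken over all genes, so they do not show whether this order is particular to the members. In whole seedlings, fewer cells of a type and less RNA per cell cannot be told apart in any of these values.

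**Figure D1:**
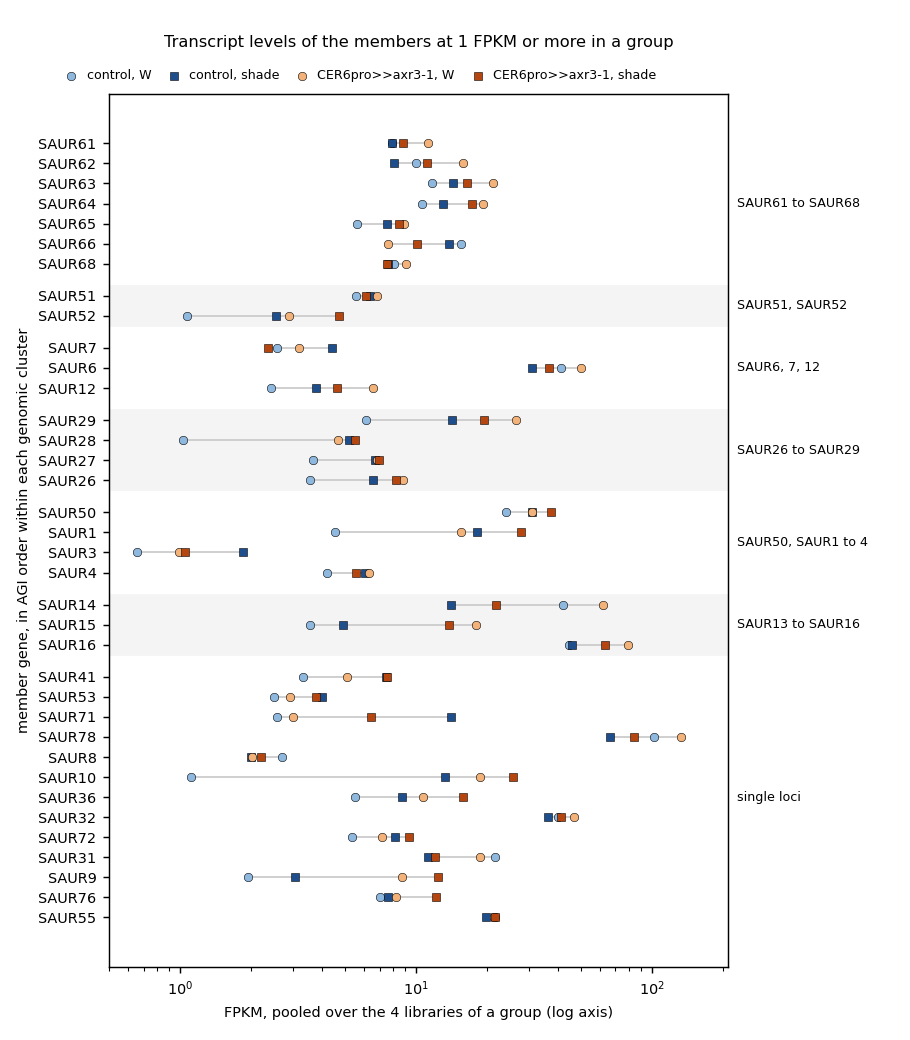
FPKM of the 36 members with at least 1 FPKM in a group, on a log axis, 1 point per group, ordered by genomic cluster and then by AGI number. Points of control W lie at the left end of the line for 24 members, among them SAUR10 at 1.11 FPKM and SAUR1 at 4.53, while SAUR14, SAUR31 and SAUR66 have control W at or near the right.

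Upstream sequence is shown for 4 called members that hold the letters CATGTG, an E-box form related to the binding sites of basic helix-loop-helix factors. A called member is one with a q under 0.05 in the authors' deposited table in a comparison that changes 1 factor. Each line gives the 250 bases before the annotated gene start (RefSeq, TAIR10.1), 5′ to 3′ on the strand of the gene. Capitals mark CATGTG and its reverse complement CACATG, and in SAUR15 also GAGACA, the reverse complement of the auxin response element TGTCTC.
SAUR14, chr4:18125560-18125809, minus strand: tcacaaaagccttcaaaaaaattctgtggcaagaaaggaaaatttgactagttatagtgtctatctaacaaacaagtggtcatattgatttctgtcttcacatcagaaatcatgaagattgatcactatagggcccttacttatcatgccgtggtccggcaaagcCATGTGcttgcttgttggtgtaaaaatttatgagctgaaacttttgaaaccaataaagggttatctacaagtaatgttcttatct
SAUR15, chr4:18125807-18126056, plus strand: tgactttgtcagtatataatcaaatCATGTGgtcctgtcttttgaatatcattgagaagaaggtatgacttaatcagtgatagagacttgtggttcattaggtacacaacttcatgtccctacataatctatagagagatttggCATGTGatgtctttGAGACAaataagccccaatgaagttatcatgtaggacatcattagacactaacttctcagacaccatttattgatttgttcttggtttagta
SAUR29, chr3:977475-977724, minus strand: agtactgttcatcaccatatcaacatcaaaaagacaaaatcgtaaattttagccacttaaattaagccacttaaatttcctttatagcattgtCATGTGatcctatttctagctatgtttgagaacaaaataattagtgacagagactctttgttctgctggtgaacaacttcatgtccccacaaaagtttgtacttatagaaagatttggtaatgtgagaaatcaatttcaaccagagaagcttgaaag
SAUR9, chr4:17089684-17089933, plus strand: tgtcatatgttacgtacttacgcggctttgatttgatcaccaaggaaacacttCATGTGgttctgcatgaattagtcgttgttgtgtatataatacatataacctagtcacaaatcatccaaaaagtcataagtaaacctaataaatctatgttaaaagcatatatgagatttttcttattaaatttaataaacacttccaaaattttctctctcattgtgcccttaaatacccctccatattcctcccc

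In windows of 250 bases before to 50 after the gene start, CATGTG on either strand occurred in 23 of 43 members (53.5%), against 12.9% of the promoters of 27443 protein-coding genes. Clustered members held it in 19 of 25 windows and single loci in 4 of 18, and the SAUR19 subfamily held it in 3 of 6. All 7 windows of SAUR61 to SAUR68 and all 4 of SAUR26 to SAUR29 had it, although tandem neighbours share sequence by descent and are not independent. Of the 8 called members, 5 held it, and SAUR16, SAUR31 and SAUR71 did not. The other motifs searched, on both strands, were no more frequent than in other genes. TGTCTC occurred in 14.0% of members and 14.2% of all promoters, and TGTCGG in 4.65% against 5.12%. The G-box CACGTG and the brassinosteroid response element CGTGTG occurred in 0 members, against 7.68% and 6.52% of all promoters. A match is a description of letters, not of a bound site.

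SAUR14 and SAUR15 are neighbours on chromosome 4 that point away from each other, with 497 bases between their gene starts. The run caaagccatgtgct occurred at both gene starts, beginning 91 bases before that of SAUR14 and 9 after that of SAUR15, and in 2 of the 27443 windows. The run acaacttcatgtccc was shared by SAUR29 and SAUR15 and likewise occurred in 2 windows. Both runs were picked as the longest shared over all pairs of called members, so their rarity carries no weight of its own.

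Shade against W in control seedlings shows how the family behaved in the first 4 h of shade. SAUR1 and SAUR71 rose and SAUR14 and SAUR31 fell, so 4 of the 36 tested members were called, beside 2.85% of all genes tested. By direction, 2 members were higher, beside 1.24% of all genes, and 2 were lower, beside 1.61%. Of all 36, called or not, 25 had a positive log2 fold and the median member stood at 0.44, against 0.00 over all genes. Of the 36, 14 had an unadjusted p under 0.05, as did 8.57% of all genes.

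SAUR71 (AT1G56150), of the SAUR41 subfamily, had 2.58 FPKM in control W, 14.1 in control shade, 3.002 in axr3-1 W and 6.43 in axr3-1 shade. Both shade groups lay above both W groups, and control shade was highest. The log2 fold of shade over W in control seedlings was 2.45 ± 0.33 (standard error from the authors' test statistic), with q = 0.00309 in the authors' deposited table, the smallest q it holds. In axr3-1 seedlings it was 1.10 ± 0.35, with q = 0.344 in the authors' deposited table. The other subfamily members SAUR41 and SAUR72 were also higher in control shade than in control W, by log2 folds of 1.17 ± 0.33 and 0.61 ± 0.27, neither of them called, and SAUR40 was under 1 FPKM.

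SAUR1 (AT4G34770) had 4.53 FPKM in control W, 18.1 in control shade, 15.5 in axr3-1 W and 27.8 in axr3-1 shade. Control W was the low group and the other 3 were all higher. SAUR1 rose by 2.00 ± 0.26 (log2) under shade in control seedlings, with q = 0.00309 in the authors' deposited table. In axr3-1 seedlings the log2 fold was 0.85 ± 0.20, with q = 0.0962 in the authors' deposited table.

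SAUR14 (AT4G38840) went the other way, with 42.0 FPKM in control W, 14.1 in control shade, 62.3 in axr3-1 W and 21.7 in axr3-1 shade. In both genotypes the shade level was well under the W level. The log2 fold was -1.57 ± 0.20 in control and -1.52 ± 0.18 in axr3-1 seedlings, both with q = 0.00309 in the authors' deposited table. Its divergent neighbour SAUR15 had a log2 fold of 0.47 ± 0.33 in control seedlings, and SAUR16 of the same cluster one of 0.05 ± 0.16, neither of them called. SAUR31 (AT4G00880) had 21.7 FPKM in control W, 11.3 in control shade, 18.7 in axr3-1 W and 12.02 in axr3-1 shade. It fell by 0.94 ± 0.23 (log2) in control seedlings, with q = 0.0178 in the authors' deposited table. Its log2 fold in axr3-1 seedlings was -0.64 ± 0.23, with q = 0.291 in the authors' deposited table. SAUR78 and SAUR6, both abundant, had lower levels in shade in both genotypes without being called, SAUR78 by log2 folds of -0.61 ± 0.16 and -0.67 ± 0.16.

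Shade against W in axr3-1 seedlings gave fewer calls. SAUR14 fell and no other member was called, which is 1 of 35 tested members beside 2.52% of all genes, and 1 lower beside 1.75% lower. No member was called higher, beside 0.778% of all genes, and 6 of the 35 had an unadjusted p under 0.05 in either direction, as did 8.15% of all genes. The median log2 fold was -0.11, with 16 members above 0 and 19 below, against 0.02 over all genes. KAT1, a guard cell marker, rose in the same comparison from 11.3 to 44.6 FPKM, while FAMA, the other marker of that list, was at 11.4 and 12.8. In control seedlings KAT1 was also higher in shade, at 16.2 FPKM in W and 27.3 in shade, and FAMA was at 13.6 and 12.5. Of these 2 markers, 1 was called higher in axr3-1 seedlings, beside 0.778% of all genes, and 0 in control seedlings, beside 1.24%. The summed guard cell markers were at 22.8 FPKM in axr3-1 W and 57.4 in axr3-1 shade, and their part in the result was not tested.

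**Figure D2:**
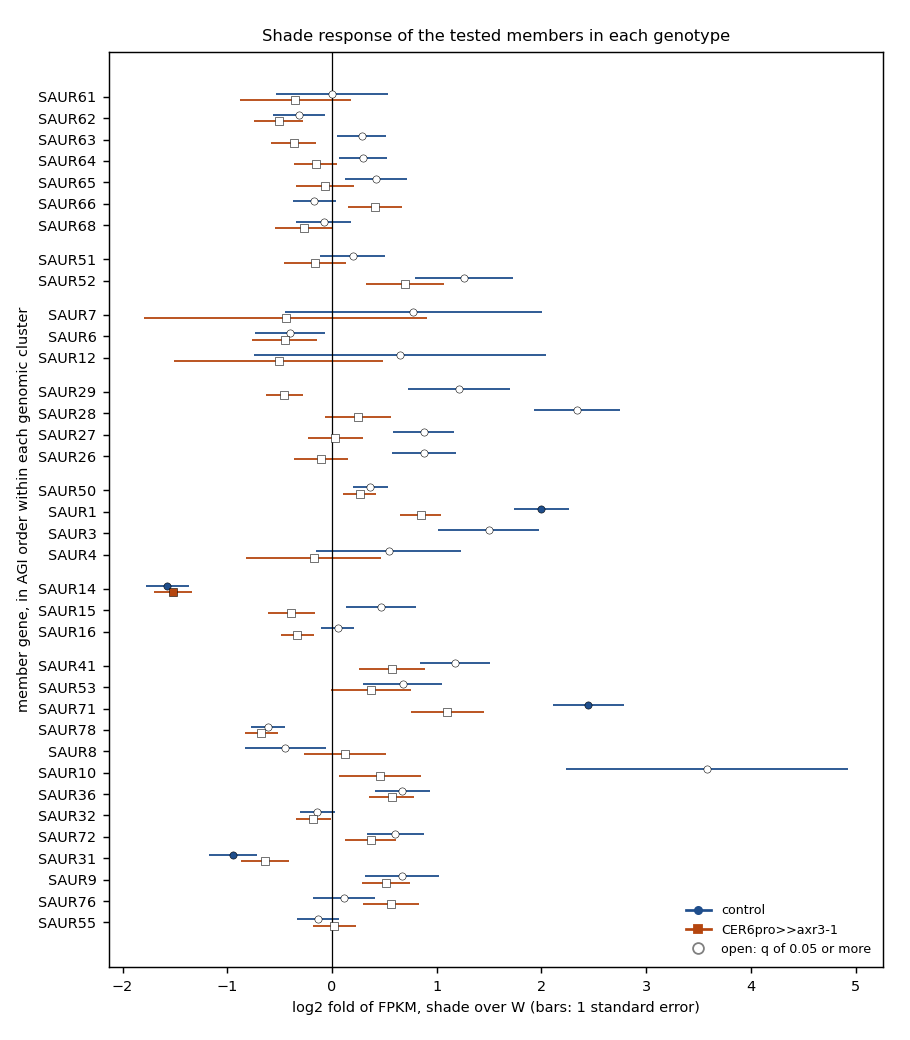
Log2 fold of FPKM, shade over W, for each tested member in control (circles) and axr3-1 seedlings (squares), with bars of 1 standard error; filled points are called. SAUR14 is filled in both genotypes, SAUR1, SAUR71 and SAUR31 in control alone, and SAUR10 has a long bar around 3.58.

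The difference between the shade responses of the genotypes was tested directly for the 35 members tested in both, with a two-sided z test per gene and Benjamini-Hochberg adjustment over 19990 genes. These comparisons share no library. SAUR10, SAUR29 and SAUR28 passed, which is 3 of 35, beside 0.62% of all genes, and all 3 responses were smaller in axr3-1 seedlings, beside 0.435%, and 0 larger, beside 0.185%. The difference was below 0 for 29 of the 35 members, with a median of -0.36, against 0.01 over all genes, of which 9563 of 19990 were below 0. This difference, the control shade response and axr3-1 against control in W all use the same 4 control W libraries. They are therefore not separate results. With the wider errors given by the authors' p, 0 of the 35 passed, and the unadjusted p of these 3 genes by the z test was 0.0259, 0.00494 and 0.0263.

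SAUR10 (AT2G18010), known as a growth-promoting gene that responds to several hormones and to light, had 1.11 FPKM in control W, 13.3 in control shade, 18.7 in axr3-1 W and 25.7 in axr3-1 shade. Control W stood far under the other 3 groups. The log2 fold under shade was 3.58 ± 1.34 in control and 0.46 ± 0.39 in axr3-1 seedlings, and the former had p = 0.00775 and q = 0.169 in the authors' deposited table, so it was not called. The difference was -3.12, with an adjusted p of 2.37e-18 by the z test with errors from the statistic. With the errors printed here its unadjusted p by the z test was 0.0259, and it did not pass after adjustment, which ends its call. The error of the control response was 0.29 from the authors' statistic and 1.34 from their p.

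SAUR29 and SAUR28 belong to the cluster of SAUR26 to SAUR29 on chromosome 3, a group of related genes known for transcripts that respond to warmth. SAUR29 (AT3G03820) had 6.13 FPKM in control W, 14.2 in control shade, 26.5 in axr3-1 W and 19.4 in axr3-1 shade. SAUR28 (AT3G03830) had 1.03, 5.21, 4.64 and 5.51 FPKM in the same order. In both genes control W was the lowest group, and axr3-1 W lay close to or above the shade groups. The log2 fold under shade in control seedlings was 1.21 ± 0.48 for SAUR29 and 2.34 ± 0.41 for SAUR28, with q = 0.228 and q = 0.0981 in the authors' deposited table. In axr3-1 seedlings it was -0.46 ± 0.17 and 0.25 ± 0.32. The difference was -1.67 for SAUR29 with an adjusted p of 3.15e-06, and -2.09 for SAUR28 with an adjusted p of 0.00933, both by the z test over all genes with errors from the statistic. With the errors printed here the adjusted p was 0.333 for SAUR29, which ends its call, and 0.0333 for SAUR28. The printed errors of SAUR28 are still those from the statistic, because it stayed within 2 times what p gives. This contrast with SAUR29 therefore rests on that cut. The error of the SAUR28 difference was 0.51 from the statistic and 0.94 from p. SAUR28 did not pass either once its errors were taken from p, with an unadjusted p of 0.0263 by the z test. With errors from the statistic, the difference for SAUR1 was -1.15 with an adjusted p of 0.0662 by the z test. For SAUR71 it was -1.35 with an adjusted p of 0.425. With the errors printed here the adjusted p was 0.176 for SAUR1 and 0.759 for SAUR71. The contrast between called and not called in SAUR1 and SAUR71 was thus not shown to be a difference between genotypes.

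Axr3-1 against control in W had the most members called higher of the 4 comparisons that change 1 factor. SAUR1, SAUR9, SAUR15, SAUR16 and SAUR29 rose and no member fell. Thus 5 of 35 tested members were called, beside 2.16% of all genes, with 5 higher beside 1.46% and 0 lower beside 0.699%. Of the 35, 31 had a positive log2 fold and 16 an unadjusted p under 0.05, beside 8.09% of all genes. The median was 0.59, against 0.01 over all genes. This direction, higher levels with a stabilised auxin repressor in the epidermis, was measured in RNA of the whole seedling, and no value for the epidermis alone was used here.

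SAUR15 (AT4G38850), first described as the auxin-induced SAUR-AC1, had 3.55 FPKM in control W, 4.91 in control shade, 18.0 in axr3-1 W and 13.8 in axr3-1 shade. The levels split by genotype, with both axr3-1 groups above both control groups. The log2 fold of axr3-1 over control was 2.34 ± 0.29 in W, with q = 0.00309 in the authors' deposited table. In shade it was 1.49 ± 0.29, with q = 0.0342 in the authors' deposited table, and adjusted within that table alone its p was 0.0809, which ends the call.

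SAUR9 (AT4G36110), whose protein is known to inhibit PP2C.D phosphatases, had 1.93 FPKM in control W, 3.07 in control shade, 8.68 in axr3-1 W and 12.4 in axr3-1 shade. It split by genotype in the same way. The log2 fold was 2.17 ± 0.32 in W and 2.02 ± 0.29 in shade, with q = 0.00564 and q = 0.00309 in the authors' deposited table. SAUR9 and SAUR15 were the only members called between the genotypes in both lights.

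SAUR16 (AT4G38860) had 44.3 FPKM in control W, 46.0 in control shade, 79.2 in axr3-1 W and 62.9 in axr3-1 shade. Its log2 fold of axr3-1 over control was 0.84 ± 0.15 in W, with q = 0.00309 in the authors' deposited table, and 0.45 ± 0.16 in shade, with q = 0.444 in the same source. For SAUR29 the log2 fold in W was 2.11 ± 0.21 and for SAUR1 it was 1.77 ± 0.26, both with q = 0.00309 in the authors' deposited table. In shade these stood at 0.45 ± 0.20 and 0.62 ± 0.19 and were not called. SAUR10 had the widest gap, 4.07 ± 1.49, and was not called either, with q = 0.145 in the authors' deposited table.

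**Figure D3:**
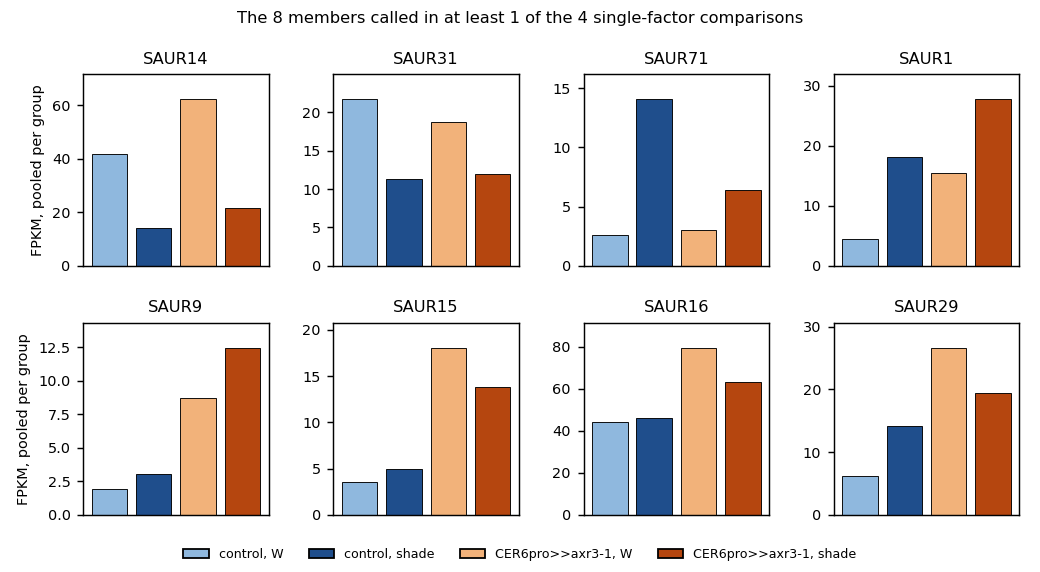
FPKM of the 8 members called in at least 1 of the 4 comparisons that change 1 factor, as bars from 0, 1 per group, with no error since the values are pooled over libraries. SAUR14 and SAUR31 are lower in both shade groups, SAUR9 and SAUR15 are higher in both axr3-1 groups, and SAUR1 and SAUR29 are lowest in control W.

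Epidermis markers were summed as a check on the tissue. Summed over ATML1, PDF1, PDF2 and CER6 they stood at 759 FPKM in control W, 658 in control shade, 444 in axr3-1 W and 541 in axr3-1 shade, and none was at 0. In W all 4 had lower values in axr3-1 seedlings, and 3 of the 4 had an unadjusted p under 0.05, beside 8.1% of all genes. PDF1 alone was called, at 411 and 202 FPKM with a log2 fold of -1.03 ± 0.27 and q = 0.00793 in the authors' deposited table. That is 1 of 4 called lower, beside 0.699% of all genes. In shade 3 of the 4 had lower values and none was called, with CER6 at 197 FPKM in control and 200.3 in axr3-1 seedlings. Their part in the result was not tested.

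In shade fewer members were called between the genotypes. SAUR9 and SAUR15 were the 2 members called of 36 tested, both higher in axr3-1 seedlings, beside 1.25% of all genes called and 0.792% called higher, and 0 were called lower, beside 0.463%. The median log2 fold was 0.20, against 0.01 over all genes, with 28 of 36 members above 0. An unadjusted p under 0.05 was found for 9 of the 36 and for 4.95% of all genes. SAUR71 lay the other way at -1.13 ± 0.28, with q = 0.117 in the authors' deposited table. SAUR36, known from leaf senescence, was higher in axr3-1 seedlings in both lights by 0.96 ± 0.26 and 0.86 ± 0.22 (log2), and was not called in either.

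**Figure D4:**
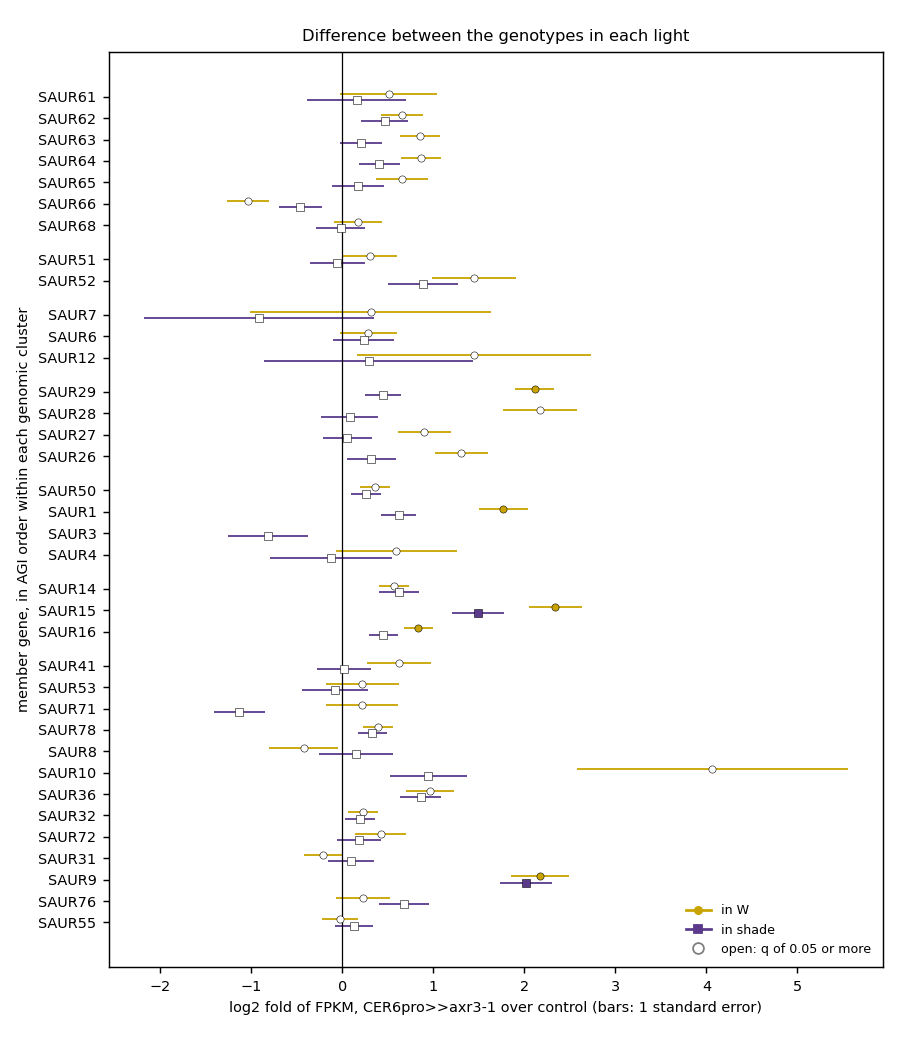
Log2 fold of FPKM, axr3-1 over control, for each tested member in W (circles) and in shade (squares), with bars of 1 standard error; filled points are called. Circles lie right of 0 for 31 of 35 members, with SAUR66 at -1.04. The median is 0.59 for circles and 0.20 for squares, but some squares lie farther from 0 than their circles, such as SAUR71 at -1.13.

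The comparisons that change both factors gave a similar picture of levels but share groups with those above. Axr3-1 shade against control W had 7 of 35 members called, beside 4.75% of all genes, with SAUR1, SAUR9, SAUR15, SAUR29, SAUR36 and SAUR52 higher, beside 2.49%, and SAUR14 lower, beside 2.26%. SAUR52 had 1.07 FPKM in control W and 4.71 in axr3-1 shade, and SAUR36 had 5.48 and 15.9. Control shade against axr3-1 W had 6 of 36 members called, beside 3.94%, with SAUR71 higher, beside 1.21%, and SAUR9, SAUR14, SAUR15, SAUR16 and SAUR78 lower, beside 2.73%.

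The coding sequences of SAUR26 to SAUR29 were 77.3 to 86.3% identical. In control seedlings all 4 had a positive shade response with a median of 1.05, and in axr3-1 seedlings 2 were above 0 and 2 below with a median of -0.04 (log2). Between genotypes in W all 4 were higher, with a median of 1.71, and in shade the median was 0.20. SAUR26 had 3.56 FPKM in control W, 6.55 in control shade, 8.82 in axr3-1 W and 8.18 in axr3-1 shade, and SAUR27 had 3.64, 6.68, 6.80 and 6.94 in the same order. The low group was control W in each of the 4 genes. Of the 4, SAUR29 was called between genotypes in W, and none was called in the other comparisons that change 1 factor.

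SAUR61 to SAUR68 on chromosome 1 had flat shade responses, with a median log2 fold of 0.00 in control and -0.27 in axr3-1 seedlings, and none of the 7 was called in any comparison, although 4 had an unadjusted p under 0.05 between genotypes in W. SAUR63 (AT1G29440), known for organ elongation, had the highest mean level there, with 11.7 FPKM in control W, 14.3 in control shade, 21.2 in axr3-1 W and 16.5 in axr3-1 shade. In W, 6 of the 7 were higher in axr3-1 than in control seedlings, with a median of 0.66. SAUR66 (AT1G29500) was the exception, with 15.5 FPKM in control W, 13.8 in control shade, 7.57 in axr3-1 W and 10.05 in axr3-1 shade. Its log2 fold of axr3-1 over control in W was -1.04 ± 0.23, with q = 0.0990 in the authors' deposited table, so it did not pass. Copies in this cluster were up to 90.5% identical in coding sequence, and 23.2% of 50-base stretches of SAUR62, 27.1% of SAUR63 and 33.9% of SAUR68 occurred elsewhere in the genome. At the read length of 50 bases, reads from such stretches could be split between copies, and the values of these 3 genes are uncertain to that extent.

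SAUR13 to SAUR16 on chromosome 4 were mixed. Their shade responses in control seedlings ran from -1.57 for SAUR14 to 0.47 for SAUR15, while between genotypes in W all 3 tested members were higher, with a median of 0.84. SAUR13 was under 1 FPKM. SAUR50 and SAUR1 to SAUR4 form another cluster on the same chromosome. SAUR50 had the highest level there with 24.1 FPKM in control W, 31.0 in control shade, 31.0 in axr3-1 W and 37.2 in axr3-1 shade, and its log2 folds of 0.37 ± 0.17 under shade in control and 0.36 ± 0.17 between genotypes in W were not called. SAUR1 was the only called member of these 5.

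The other clusters had no member called in the comparisons that change 1 factor. SAUR51 had 5.55 FPKM in control W, 6.36 in control shade, 6.86 in axr3-1 W and 6.12 in axr3-1 shade. SAUR6 had 41.1, 31.1, 50.2 and 36.6 FPKM in the same order. SAUR6, SAUR7 and SAUR12 lie in 1 merged locus in the authors' tables together with other genes, and the standard errors of SAUR7 and SAUR12 ran from 0.997 to 1.42 on the log2 scale. The deposited loci of SAUR8, SAUR13 and SAUR61 were also shared, each being listed for 2 rows. Of the loci that stand alone, SAUR55 was nearly level, at 21.7, 19.7, 21.3 and 21.6 FPKM.

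The genes on which SAUR proteins act were taken from a list of 9 PP2C.D and 11 AHA genes. PP2C.D1 (AT5G02760) had 23.9 FPKM in control W, 147 in control shade, 140 in axr3-1 W and 226 in axr3-1 shade. As in SAUR1 and SAUR29, control W was its low group. It rose by 2.62 ± 0.38 (log2) under shade in control seedlings and was 2.55 ± 0.39 higher in axr3-1 than in control seedlings in W, both with q = 0.00309 in the authors' deposited table. PP2C.D7 (AT5G66080) had 4.60, 11.9, 3.75 and 8.39 FPKM in the order of the groups and rose under shade in both genotypes, by 1.37 ± 0.27 and 1.16 ± 0.29, each with q = 0.00309 in the authors' deposited table. Of the 9 phosphatase genes, 2 were called under shade in control seedlings (2.85% of all genes), 1 in axr3-1 seedlings (2.52%), 1 between genotypes in W (2.16%) and 0 in shade (1.25%), where 2 had an unadjusted p under 0.05.

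No pump gene was called in any of these 4 comparisons, in which 8, 9, 9 and 9 were tested and 1, 1, 0 and 0 had an unadjusted p under 0.05. At the shares of all genes called, 1.25% to 2.85%, a count of 0 in so few genes says little. AHA2 was the most abundant, with 272 FPKM in control W, 284 in control shade, 279 in axr3-1 W and 334 in axr3-1 shade, and AHA1 had 182, 195, 195 and 209. AHA11 had 32.2, 59.6, 27.1 and 49.3 FPKM in the same order. Its log2 folds under shade, 0.89 in control and 0.86 in axr3-1 seedlings, were the highest of the tested pump genes. In control shade against axr3-1 W, 1 of 9 pump genes was called higher, beside 1.21% of all genes, and 0 lower, beside 2.73%. In the SAUR19 subfamily, 1 of 6 genes was called under shade in control seedlings, 0 in axr3-1 seedlings, 1 between genotypes in W and 0 in shade, beside the same shares of all genes. An unadjusted p under 0.05 was found for 4, 2, 6 and 0 of the 6, beside 8.57%, 8.15%, 8.09% and 4.95% of all genes. Its summed level was 63.3 FPKM in control W, 175 in control shade, 197 in axr3-1 W and 250 in axr3-1 shade, so the sum was low in control W alone, whereas that of the 42 members was alike in both lights of the control.

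**Figure D5:**
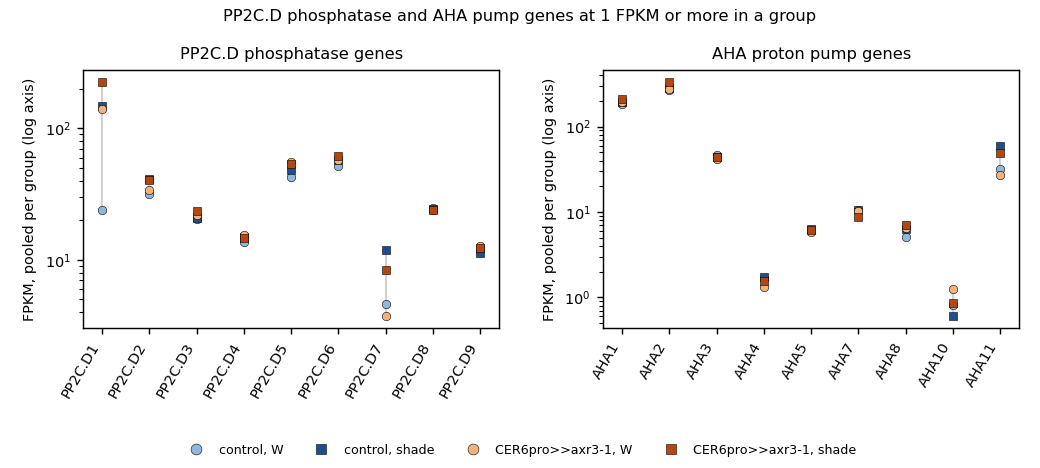
FPKM of the 9 PP2C.D and 9 AHA genes with at least 1 FPKM in a group, on a log axis, 1 point per group. PP2C.D1 spans 23.9 to 226 FPKM and PP2C.D7 3.75 to 11.9. The points of AHA1 and AHA2 lie close together, while AHA11 spans 27.1 to 59.6 FPKM.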

How the data were processed

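Per the labels, single-end reads of 50 bases came from stranded polyadenylated RNA libraries. Per the submitters' processing notes, the authors used CASAVA 1.8.2, TopHat2 2.0.9 and Bowtie2 2.1.0 with the build TAIR10, then Cufflinks and Cuffdiff, whose versions are not given in the sources used here, nor is whether counting used strand. The authors deposited FPKM values pooled over the 4 libraries of a group. The authors' deposited test statistic (a score), p-values and q-values were taken as they stand. Depth per library is unknown, so no precision from depth is stated. The labels do not say whether libraries came from separate cultures, so p-values may measure technical spread. The Brassica tables were not used.

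A gene was called at a q under 0.05 where the authors' status column allowed a test. Log2 folds are ratios of FPKM without a pseudocount. The standard error was the log2 fold over the authors' statistic, times a factor of 0.558 to 0.564. That factor matched the statistic to p over all genes, but not for the members. In the difference of the shade responses, errors from p were larger for every tested member but SAUR61. They were 0.77 against 0.48 for SAUR71 and 0.61 against 0.75 for SAUR61. For SAUR66 between genotypes in W, the error printed was 0.23 and p gave 0.36. Errors printed for members, and those of the z test, can thus be narrower than the authors' p allows. Where the statistic was more than 2 times what p gives, the error printed comes from p (SAUR4, SAUR10 and SAUR29 under shade in control seedlings, and likewise in other comparisons), whereas the z test of differences used errors from the statistic. Genes under 1 FPKM in all groups stayed out of that test. It was also run on simulated data, but there the test was given the true errors. That run therefore cannot show which choice of error is right for the real data.

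The members and lists were chosen with earlier results of these data known. Full statistics were given for members called in 1 of the 4 comparisons that change 1 factor, for those past the difference test and for the highest member of each cluster; SAUR66, SAUR36, SAUR55 and others described by level were picked after their values were seen. The upstream sequence of 1 further called member is not reported here. Clusters joined members whose AGI numbers differ by at most 50. Promoter windows and gene models came from RefSeq on TAIR10.1, where all 27242 genes found in both overlapped their deposited locus. Only 38.1% of them shared a start or end coordinate with it, so the windows depend on the RefSeq gene start. For SAUR29, on the minus strand, that start was base 977474, while the deposited locus ended at 977342. Python 3.11.15, pandas 2.3.3, SciPy 1.17.1 and Biopython 1.88 were used. Alternatives were a q under 0.01, adjustment within a table, a pseudocount of 1, centring on the median of all genes and other standard errors.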

Additional observations from a re-analysis of the deposited data

Results flagged for a closer look

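The shade response differed between genotypes for 3 members in the z test over all genes. The response of axr3-1 minus that of control seedlings was -3.12 (log2) for SAUR10, -1.67 for SAUR29 and -2.09 for SAUR28. All 3 had their lowest level in control W. No gene of the 3 passed under every choice of standard error: 1 passed with the statistic read as a normal deviate (SAUR10), 1 with errors from p where the statistic exceeded it (SAUR28), and 0 with errors from p throughout. Under the choice that SAUR28 passed, its own errors stayed those from the statistic.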

How the results depend on the processing

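Each group has 1 pooled value per gene, so leaving out a library could not be done. No paired analysis was possible because the tables carry no value per replicate. Between genotypes in shade, 1 member was called at a q under 0.01 and 1 with adjustment within the table, against 2. SAUR15 lost its call in both, and SAUR31 under shade in control seedlings at a q under 0.01. For axr3-1 shade against control W, 3 were called at a q under 0.01, against 7. In the difference test 1 member passed with the statistic read as a normal deviate, 0 with errors from p and 1 (SAUR28, adjusted p of 0.0333) with errors from p where the statistic exceeded it, the last chosen after seeing the data, against 3. The other counts stayed within 1.5 times, and no median changed direction. Matching by gene identifier alone and leaving out members with repeated sequence, both chosen after seeing the data, moved the median shade response of axr3-1 seedlings from -0.11 to -0.06 and -0.02. Folds of called members kept their direction with a pseudocount of 1 and after centring; uncalled folds were not recomputed.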
